A study of Homo sapiens with 8 samples.

Results

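The genes described here are the replication-dependent histone genes, taken as every gene of the deposited count table whose symbol begins with HIST1H, HIST2H, HIST3H or HIST4H, with 15 symbols of pseudogenes left out. This rule gave 75 of the 54261 genes, with 6 H1, 17 H2A, 23 H2B, 14 H3 and 15 H4 genes, and 5 of the 75 (HIST2H2BA, HIST2H2BB, HIST2H2BC, HIST2H2BD and HIST3H2BA) are listed as pseudogenes by RefSeq. The study sequenced total RNA from established human cell lines to search for RNAs that differ in colorectal cancer (CRC). NCM460 and HIEC6, labelled as normal human intestinal epithelial lines, formed the normal group (n = 2 lines). DLD1, HCT116 and HCT8, labelled as CRC lines, were each sequenced untreated (n = 3 lines) and after hypoxia treatment (n = 3 lines). All 8 libraries carry the same passage label, no line carries an engineered allele in the labels, and the oxygen level and duration of the hypoxia are not given in the sources used here. Each library stands for 1 culture of 1 line, so the replicates of a group are different lines. A p-value between groups measures the spread between lines. With samples paired by line, a p-value for hypoxia measures how much the hypoxia difference varies between lines. The test between CRC lines takes the untreated and hypoxia library of a line as its replicates, and no culture is repeated.

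Chromatin is built from nucleosomes, in which DNA is wound around core histones H2A, H2B, H3 and H4, while linker histone H1 binds where the DNA enters and leaves. Cells that copy their DNA need new histones in bulk, and the genes that supply them are present in many copies, lie in clusters and are expressed mainly in S phase. Their mRNAs are exceptional because most end in a short stem-loop in place of a poly(A) tail. The stem-loop binding protein SLBP, the U7 particle and a cleavage complex form this end, and NPAT drives transcription of the genes in specialised nuclear bodies.

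The stem-loop was read from the GRCh37 genome, within 100 bases after each annotated stop codon, as a 6-base stem opening with GG and a 4-base loop opening with T. It was found in 65 of the 67 members searched (97%), against 16 of 19551 other protein-coding genes (0.0818%) and 1 of 12 replication-independent histone genes, H2AFX. The exceptions among the members were HIST1H2AG and HIST1H2AK. One and the same 16-base core was carried by 39 members. The 6 ends printed here, 5′ to 3′ on the strand of the gene, cover all families and show how little the element varies between genes whose levels differed widely. Capitals mark the stem and loop.
HIST1H1B (chr6:27834570-27834595, minus strand): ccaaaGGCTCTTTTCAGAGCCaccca
HIST1H2AM (chr6:27860477-27860502, minus strand): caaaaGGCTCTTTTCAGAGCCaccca
HIST1H2BK (chr6:27114140-27114165, minus strand): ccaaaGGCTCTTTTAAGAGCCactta
HIST1H3B (chr6:26031820-26031845, minus strand): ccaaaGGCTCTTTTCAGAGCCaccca
HIST1H4C (chr6:26104540-26104565, plus strand): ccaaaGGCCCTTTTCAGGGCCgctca
HIST1H4E (chr6:26205224-26205249, plus strand): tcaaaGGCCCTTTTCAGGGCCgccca

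Ribosomal RNA was removed from the total RNA of the untreated lines, a preparation that keeps mRNAs without a tail, and the preparation of the hypoxia libraries is not given in the sources used here. The total count lay between 45519306 and 57374239, so that 3 counts, taken as the most that a count of 0 allows, came to between 0.0523 and 0.0659 CPM, the count per 1000000 counts of its library. Of 12 epithelial markers, 9 to 11 exceeded 1 CPM in every library but HIEC6, where 6 did. HIEC6 had 0.176 CPM of EPCAM and 3.03 CPM of CDH1, with 4290 CPM of KRT8. Of 12 mesenchymal markers, 8 exceeded 1 CPM in HIEC6, against 7 in NCM460 and untreated HCT116 and 9 in DLD1 under hypoxia. VIM led in HIEC6 with 1223 CPM, while COL1A2 (0.458), SPARC (0.247), LUM (0.335) and DCN (0.0705) were under 1 CPM there. An extraction note shared by all samples names a brain tissue, and of a list of 10 neural genes 3 to 5 exceeded 1 CPM in each library, led by MBP (10.8 to 117.5 CPM) and, in NCM460 and both HCT116 libraries, SYT1 (68.8 to 159 CPM), while the astrocyte markers GFAP and AQP4 were at or under 0.0957 CPM. The part of this in the results was not tested. NCM460 resembled HCT116, a line of another group, more than it resembled HIEC6, with Pearson's r over log2 values of all genes at 0.994 and 0.924 (genes are not independent replicates). The 0.994 was as high as between libraries of 1 line. Untreated and hypoxia libraries had 0.994 in DLD1, 0.980 in HCT116 and 0.989 in HCT8. Untreated DLD1 and HCT8, different lines, had 0.973. What lies behind this likeness was not tested. The library labelled NCM460 is therefore named as such throughout, and the comparison of CRC with normal lines is given with and without it. All 10 genes of a hypoxia list had positive log2 fold changes under hypoxia, and 7 passed edgeR's test with the line as a block.

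The 75 genes together took 1.01% of the DLD1 counts, 0.708% of those of HCT116 and 1.10% of those of HCT8, and 0.345% and 0.982% of the counts of NCM460 and HIEC6. As summed CPM this was 10088, 7084 and 10987 in the CRC lines and 3445 and 9817 in the normal lines, with a 95% exact Poisson interval of 3428.6 to 3461.5 for NCM460 that covers counting error only. The sum was thus highest in HCT8 and lowest in NCM460, with HIEC6 inside the range of the CRC lines. The untreated CRC lines averaged 9386 ± 2044 CPM (SD, n = 3), and the normal lines averaged 6631 ± 4505 CPM (SD, n = 2), so the difference was smaller than the spread of the normal lines, and without NCM460 the normal value is the 9817 CPM of HIEC6. Expression was broad as well as high, since 54 members exceeded 10 CPM in at least 1 library and 25 did so in all 8. By contrast, 13 stayed under 1 CPM everywhere, among them HIST1H1A.

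**Figure D1:**
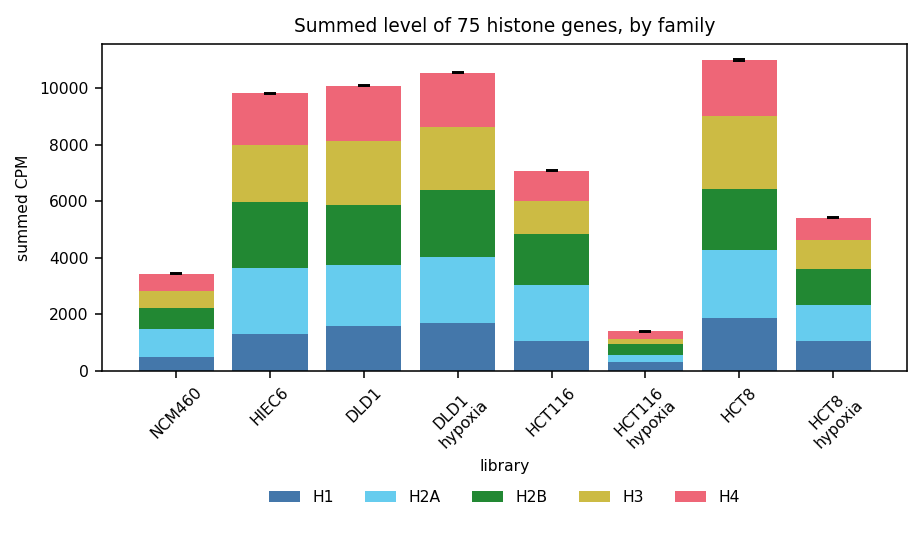
Summed CPM of the 75 histone genes in each library (y axis), split by family in colour, with 95% exact Poisson intervals of the total as black bars. The totals run from 1402 CPM in HCT116 under hypoxia to 10987 CPM in HCT8, and all 5 families are lower in HCT116 under hypoxia than in untreated HCT116.

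Scaled to coding length, which ran from 294 bases for the shortest H4 gene to 678 for the longest H1 gene, and over the members with an annotated coding sequence, the core families stood at similar levels in DLD1. In DLD1 the summed levels were 5483 CPM per kb for H2A, 5142 for H2B, 5565 for H3 and 6341 for H4, with 2434 for linker H1. In HCT116 they were 5067 for H2A and 4589 for H2B but 2858 for H3 and 3468 for H4. H3 and H4, which enter the nucleosome together, were therefore both lower relative to H2A and H2B in HCT116 than in DLD1. In NCM460 H3 was again the lowest core family (1491), while H4 (2020) lay between H2B (1842) and H2A (2561). This is a comparison of single libraries with no replicate check.

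A few genes carried much of each family. Per kb of coding sequence, the highest mean level over the 8 libraries among the H1 genes was that of HIST1H1C (764 CPM per kb), among H2A HIST1H2AG (910), among H2B HIST1H2BK (796), among H3 HIST1H3B (1093) and among H4 HIST1H4E (900). HIST1H3B had 578, 408 and 576 CPM in DLD1, HCT116 and HCT8 and 195 and 857 CPM in NCM460 and HIEC6, so that NCM460 was lowest and HIEC6 highest. HIST1H2AG was likewise lowest in NCM460 (207 CPM) and highest in HIEC6 (618), with 423, 384 and 453 CPM in the CRC lines. HIST1H4E, one of 13 genes that encode the same H4 protein, peaked elsewhere, with 445, 263.5 and 335 CPM in DLD1, HCT116 and HCT8 and 144 and 355 CPM in NCM460 and HIEC6. HIST1H2AM (166 to 405 CPM in the untreated lines), HIST1H2BO (109 to 303) and HIST1H4C (138 to 343.5) were present in every one of these lines. HIST1H1C had the highest mean CPM of all members, 488.

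The CRC lines differed most in a set of members that were close to absent from HCT116. With treatment as a term, edgeR's F test over the 6 CRC libraries called 21 of 63 members between the lines (33.3%) at a Benjamini-Hochberg adjusted p under 0.05, where 39.0% of all 21045 genes tested were called. How these shares compare turned on the setting and on single libraries. With no filter on low counts it was 68.5% of members against 29.9% of genes, and with DESeq2 47.6% against 43.6%. Without untreated DLD1, untreated HCT116 and HCT116 under hypoxia it was 73.0% against 29.2%, 87.3% against 50.4% and 60.3% against 44.5%. The members' share was the lower one with at least 10 counts in every library (14.6% against 38.3%) and with limma-trend (34.9% against 43.5%). The shares were close with library totals alone (36.5% against 37.4%) and without HCT8 under hypoxia (23.8% against 22.3%). Of the 21, 19 had their lowest mean in HCT116, 2 (HIST2H2BA and HIST4H4) in HCT8 and none in DLD1. What set some of them apart was the size of the difference. HIST1H1B, HIST1H1D, HIST1H2AL, HIST1H2BE, HIST1H2BH, HIST1H3F, HIST1H3I, HIST1H4I and HIST1H4L were under 1 CPM in both HCT116 libraries and over 10 CPM in all 4 libraries of DLD1 and HCT8. This is 9 of all 75 members (12.0%), against 97 of the 21045 genes tested (0.461%). Among those over 10 CPM in these 4 libraries it is 9 of 48 members (18.8%), against 97 of 8765 genes. These limits were set with the values known, and no test is attached to the count. Adjusted p-values of the 9 from edgeR's F test ran from 1.11e-05 for HIST1H1D to 0.000251 for HIST1H2BE. In that test the untreated and hypoxia library of a line are its replicates, so these p-values measure no spread between cultures. The 9 were also picked by values of the same libraries.

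HIST1H1B gives the scale, with 464 CPM in DLD1, 802 in HCT8, 0.593 in HCT116 and 0.0722 in HCT116 under hypoxia. HIST1H3F, one of 10 HIST1H3 genes with the same protein, had 299.5 CPM in DLD1, 305 in HCT8, 0.153 in HCT116 and 0.0181 in HCT116 under hypoxia. HIST1H4I had 107.6 CPM in DLD1, 318 in HCT8 and 0.287 in HCT116. In each of these the HCT116 libraries lay far below every library of DLD1 and HCT8. The 9 genes together supplied 1489 CPM in DLD1 and 2071 CPM in HCT8, or 14.8% and 18.9% of the histone sum, and 1.26 CPM in HCT116.

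The 9 genes were not scattered evenly along chromosome 6. Among the 42 members of the HIST1 cluster that exceeded 10 CPM in some library and whose start could be placed, HIST1H2AL, HIST1H1B, HIST1H3I and HIST1H4L are direct neighbours within 8.22 kb, with starts from 27833095 to 27841312 (GRCh37), and HIST1H1D, HIST1H3F and HIST1H2BH are neighbours within 16.6 kb, from 26235215 to 26251842. HIST1H2BE (26183989) and HIST1H4I (27107061) stand alone. The members that border the run of 4 were expressed in HCT116, with 175 CPM for HIST1H2BN on one side and 85.1 CPM for HIST1H3J on the other. The change from present to absent thus fell between adjacent genes of 1 cluster.

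**Figure D2:**
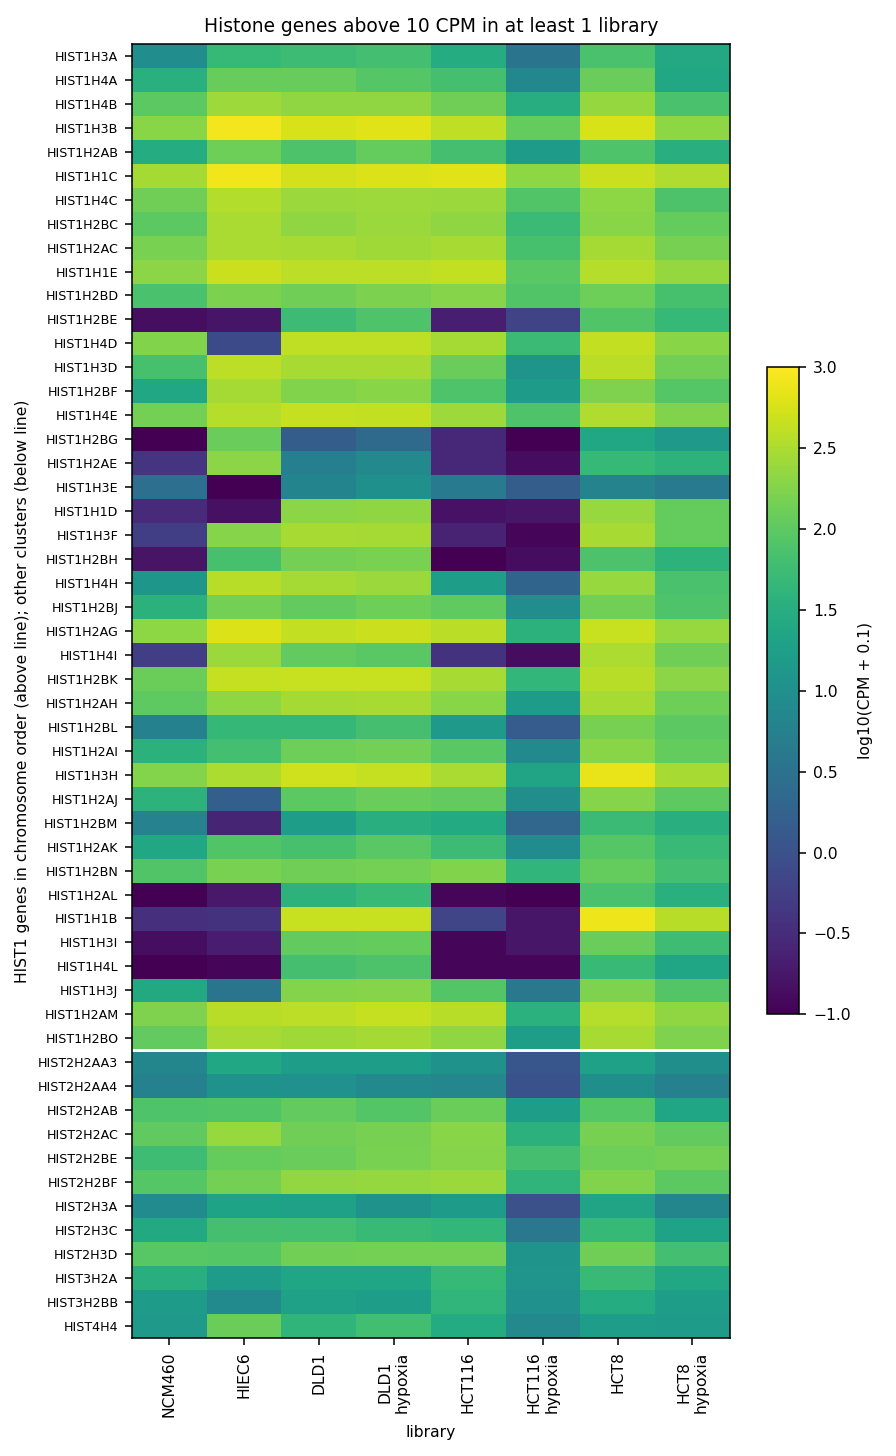
Level of the 54 histone genes above 10 CPM in at least 1 library, as log10(CPM + 0.1) in colour (rows are genes, columns are the 8 libraries). Genes of the HIST1 cluster stand in chromosome order above the white line. Dark cells in the NCM460 and both HCT116 columns include HIST1H2BE, the run from HIST1H1D to HIST1H2BH, HIST1H4I and the run from HIST1H2AL to HIST1H4L. HIST1H2BG and HIST1H2AE are as dark there, but lie under 10 CPM in DLD1.

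In HIEC6 a partly different set was near-absent. Of the 48 members over 10 CPM in all 4 libraries of DLD1 and HCT8, HIEC6 had 8 under 1 CPM (16.7%), where 2.32% of all genes over 10 CPM there did. The run HIST1H2AL, HIST1H1B, HIST1H3I and HIST1H4L was under 1 CPM in HIEC6 as in HCT116, and so were HIST1H1D and HIST1H2BE. HIST1H3F (186 CPM), HIST1H2BH (69.0) and HIST1H4I (250), near 0 in HCT116, were expressed in HIEC6. Conversely, HIST1H4D had 0.705 CPM in HIEC6 and 174 to 428 CPM in the other untreated lines, and HIST1H2BM had 0.159 CPM against 5.81 to 52.6. HIST1H3E was at 0 counts in HIEC6, which allows up to 0.0529 CPM, and had 2.83 to 6.17 CPM in the other untreated lines. The library labelled NCM460 had the same 9 members under 1 CPM as HCT116, and over all 75 members no gene was under 1 CPM in one of these libraries only.

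The linker histones show what this meant for a family whose members differ in protein. HIST1H1C encodes H1.2, HIST1H1D H1.3, HIST1H1E H1.4 and HIST1H1B H1.5. In DLD1, HIST1H1C took 33.7% of the H1 counts, HIST1H1B 29.0%, HIST1H1E 24.6% and HIST1H1D 12.8%. In HCT8 the leading gene was HIST1H1B with 42.4%, followed by HIST1H1C with 25.7%. In HCT116 and HIEC6, HIST1H1C (59.3% and 63.0%) and HIST1H1E (40.6% and 36.9%) made up nearly all H1 counts, and HIST1H1B and HIST1H1D together stayed under 0.1%. HIST1H1C itself stood at 816 CPM in HIEC6 and 627 in HCT116, above the 539 of DLD1 and 486 of HCT8, but at 290.4 CPM in NCM460, where HIST1H1B and HIST1H1D were also under 1 CPM. HIST1H1A (H1.1) reached at most 14 counts in a library.

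**Figure D3:**
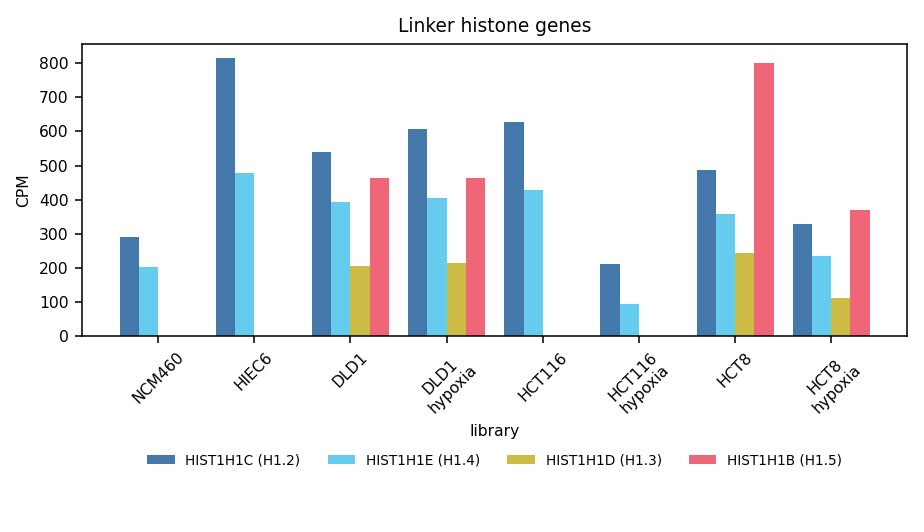
CPM of 4 linker histone genes (y axis) in each of the 8 libraries, 1 bar per gene and library, without error bars since each library is 1 culture. HIST1H1B and HIST1H1D bars are visible in the DLD1 and HCT8 libraries and are under 1 CPM in NCM460, HIEC6 and HCT116.

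Many H2A and H2B genes are arranged back to back, reading away from 1 shared stretch of DNA. The 4 pairs described here were picked after their values were seen. Over the 8 libraries, which include 2 of each CRC line, the correlation of log2 CPM was 0.992 for HIST1H2AJ with HIST1H2BM. It was 0.13 for HIST2H2BC with HIST2H2AA4, 0.174 for HIST1H2AD with HIST1H2BF and 0.644 for HIST2H2BE with HIST2H2AC. Of these, HIST1H2AD (0.171 to 0.7495 CPM) and HIST2H2BC (0.882 to 1.74 CPM, listed as a pseudogene) lay near the floor. HIST1H3D, placed at the same start as HIST1H2AD, had 0.947 with HIST1H2BF. HIST1H3J with HIST1H2BO had 0.587, and most other pairs had 0.824 or more. HIST1H2AJ and HIST1H2BM have 244 bases between their starts. HIST1H2AJ had 97.8, 110.2 and 190.4 CPM in DLD1, HCT116 and HCT8 and 39.1 and 1.55 in NCM460 and HIEC6, and HIST1H2BM had 17.0, 27.5 and 52.6 and then 5.81 and 0.159. Both were lowest in HIEC6 and highest in HCT8, and the order of the 5 lines was the same for each. HIST1H2AE and HIST1H2BG, with 232 bases between their starts, followed another order, with 199.5 and 120.4 CPM in HIEC6, 47.2 and 25.2 in HCT8, 5.27 and 1.39 in DLD1 and 0.191 each in HCT116. The pairs HIST1H2AH with HIST1H2BK and HIST1H2AM with HIST1H2BO exceeded 100 CPM in all 5 untreated lines, with correlations of 0.968 and 0.989. Their partners peaked in different lines, but the next line was near each time. HIST1H2AH had 303 CPM in HCT8 and 293 in DLD1, and HIST1H2BK had 458 in DLD1 and 447 in HIEC6. HIST1H2AM had 405 in DLD1 and 372 in HIEC6, and HIST1H2BO had 303 in HCT8 and 299 in HIEC6.

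**Figure D4:**
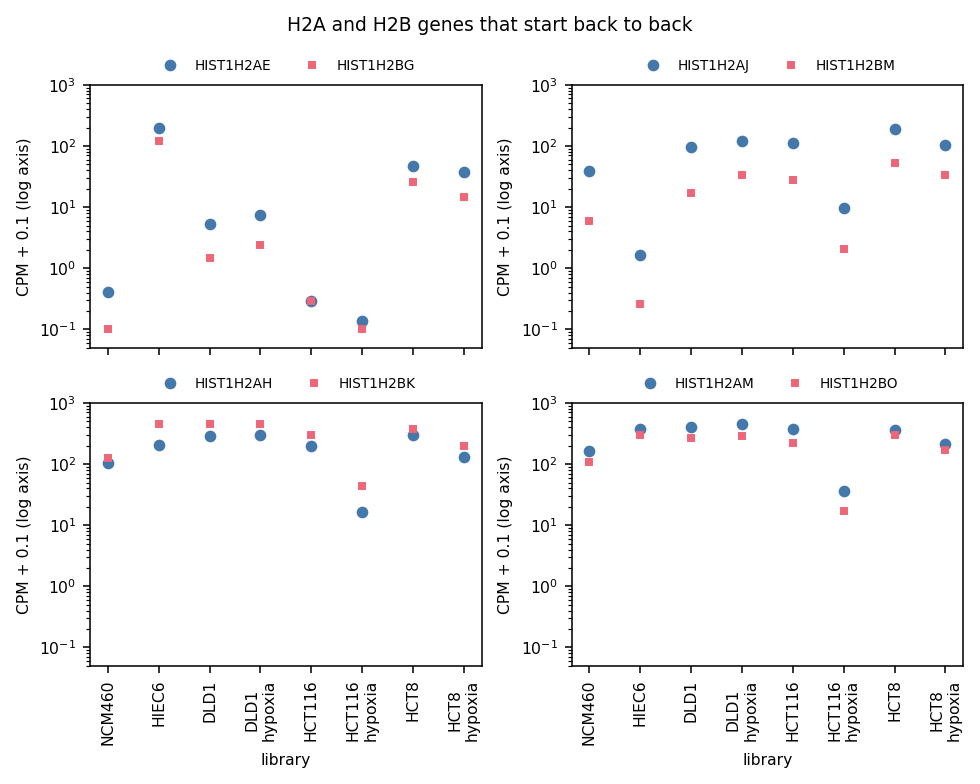
CPM + 0.1 on a log axis of 4 pairs of H2A (circles) and H2B (squares) genes that start back to back, in the 8 libraries. HIST1H2AE and HIST1H2BG are both highest in HIEC6 (199.5 and 120.4 CPM) and HIST1H2AJ and HIST1H2BM lowest there (1.55 and 0.159 CPM).

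The DNA between such partners is shown for HIST1H2BM, and the promoter of HIST1H1B, the most abundant of the genes near-absent from HCT116, is shown beside it. Both sequences are from RefSeq (GRCh38.p14, 250 bases before to 50 after the start), were found once in GRCh37 and are given with GRCh37 positions, 5′ to 3′ on the strand of the gene. Capitals mark the octamer ATTTGCAT, CCAAT and TATAAA on either strand, which do not overlap one another here.
HIST1H2BM (chr6:27782550-27782849, plus strand): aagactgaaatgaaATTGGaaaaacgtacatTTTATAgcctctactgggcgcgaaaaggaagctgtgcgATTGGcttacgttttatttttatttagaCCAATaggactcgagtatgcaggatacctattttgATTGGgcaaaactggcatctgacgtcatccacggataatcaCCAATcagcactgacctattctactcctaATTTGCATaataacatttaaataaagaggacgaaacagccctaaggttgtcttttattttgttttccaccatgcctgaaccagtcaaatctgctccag
HIST1H1B (chr6:27835317-27835616, minus strand): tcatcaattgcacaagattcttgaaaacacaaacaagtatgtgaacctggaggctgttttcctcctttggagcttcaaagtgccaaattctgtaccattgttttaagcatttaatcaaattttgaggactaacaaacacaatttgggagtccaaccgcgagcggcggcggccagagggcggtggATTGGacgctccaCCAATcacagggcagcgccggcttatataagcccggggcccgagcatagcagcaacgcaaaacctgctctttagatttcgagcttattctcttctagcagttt
The octamer was present in 77.8% of 18 H2B and 68.8% of 16 H2A promoters, 8.33% of 12 H3 promoters and none of the H1 and H4 promoters, against 1.80% of 27305 RefSeq promoters. CCAAT stood in 84.6% of the 65 members' promoters (35.7% of all) and TATAAA in 66.2% (12.0% of all). Among the 8 promoters placed for the genes near-absent from HCT116, 3 held the octamer, 8 CCAAT and 4 TATAAA. Of the 25 placed for members over 10 CPM in all 6 CRC libraries, 13 held the octamer, 22 CCAAT and 17 TATAAA.

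Under hypoxia the histone genes were lower in HCT116 and HCT8 and about level in DLD1. The summed level was 10088 CPM in untreated DLD1 and 10548 under hypoxia, 7084 and 1402 in HCT116, and 10987 and 5418 in HCT8, so that the hypoxia library held 1.05 times, 0.198 times and 0.493 times the untreated level. Each pair is 1 library against 1 library with no replicate check. Over members tested with at least 10 counts in either library, the log2 difference (pseudocount 0.1 CPM) had a median of 0.07 for 63 members in DLD1, -2.43 for 57 in HCT116 and -0.96 for 63 in HCT8, where the medians of all genes were -0.01, -0.34 and 0.01. More than 2-fold lower were 0 of 63 members in DLD1 (3.54% of all genes), 54 of 57 in HCT116 (22.9% of all genes) and 28 of 63 in HCT8 (7.50% of all genes).

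Across the 3 lines, edgeR's quasi-likelihood test without a block called 0 of 63 members, as it called none of the 21045 genes (0%), with 2 members and 607 genes at an unadjusted p under 0.05 and 0 members called by DESeq2 or limma-trend. Of the 63, 58 had a negative log2 fold change, and the median was -0.66 against 0.06 for all genes tested. This median was -1.48 without DLD1 under hypoxia and -0.24 without HCT116 under hypoxia, where 19 of 63 were positive. With the line as a block, which the shared line in each pair calls for, 0 members were again called (0.209% of all genes were called lower). Of the 63, 31 had an unadjusted p under 0.05, where 3884 of the 21045 genes had. Of the members 60 were negative, and their median was -0.94. DESeq2 with the same block, an alternative added after seeing the data, called 9 members, all lower (3.38% of all genes): HIST1H3D, HIST1H3H, HIST1H4A, HIST1H4B, HIST1H4H, HIST2H2AB, HIST2H3A, HIST2H3C and HIST2H4A. With both DLD1 libraries left out, edgeR with the block called 10 members, all lower (0.572% of all genes). With both HCT116 libraries left out it called 1 of 63 members lower, HIST2H3A, where it called 277 of 19513 genes lower. No run label is common to untreated and hypoxia CRC libraries, and treatment and run cannot be told apart.

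Every hypoxia library lay below every untreated library for 8 of 63 members (12.7%), against 6.44% of all genes, and none lay above. HIST2H2AB had 110.5 CPM in DLD1, 125 in HCT116 and 89.5 in HCT8 without treatment, and 84.3, 17.6 and 22.1 under hypoxia. Its log2 fold change was -1.31 (SE 0.61, adjusted p = 1.0, edgeR) without the block and -1.63 (SE 0.38, adjusted p = 0.092, edgeR) with it. HIST2H4A, one of 2 genes with an identical coding sequence, had 5.23, 4.67 and 5.17 CPM untreated against 2.84, 0.289 and 1.49 under hypoxia, and HIST2H3A had 19.5, 15.5 and 21.5 against 11.2, 0.885 and 6.88. In these genes DLD1 under hypoxia stayed nearest to the untreated range. HIST2H4B, HIST1H4J and HIST1H4K, also with identical copies, HIST1H2AC and HIST3H2BB made up the rest of the 8.

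The families did not move by equal amounts. In HCT116 the summed level of H2A fell by 2.86 on the log2 scale, H3 by 2.75, H2B by 2.23, H4 by 2.02 and H1 by 1.79. In HCT8 the order was different, with H3 at -1.34 and H4 at -1.31, then H2A at -0.90, H1 at -0.86 and H2B at -0.75. H3 was thus among the most reduced and H1 among the less reduced families in both pairs, while in DLD1 all 5 lay between -0.03 and 0.16. HIST1H3J, the most reduced member in HCT116, had 85.1 CPM untreated and 3.88 under hypoxia (21.4-fold lower), and HIST1H3H had 313 and 21.3 (14.6-fold). HIST1H3B, which encodes the same H3 protein, had 408 and 115 CPM (3.54-fold). In HCT8 the most reduced member was HIST1H4A, with 120.0 CPM untreated and 23.7 under hypoxia (5.06-fold). HIST1H2BE was the only member that was more than 2-fold higher under hypoxia in any pair, and its HCT116 values, 0.115 and 0.560 CPM, were both among the near-absent levels.

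**Figure D5:**
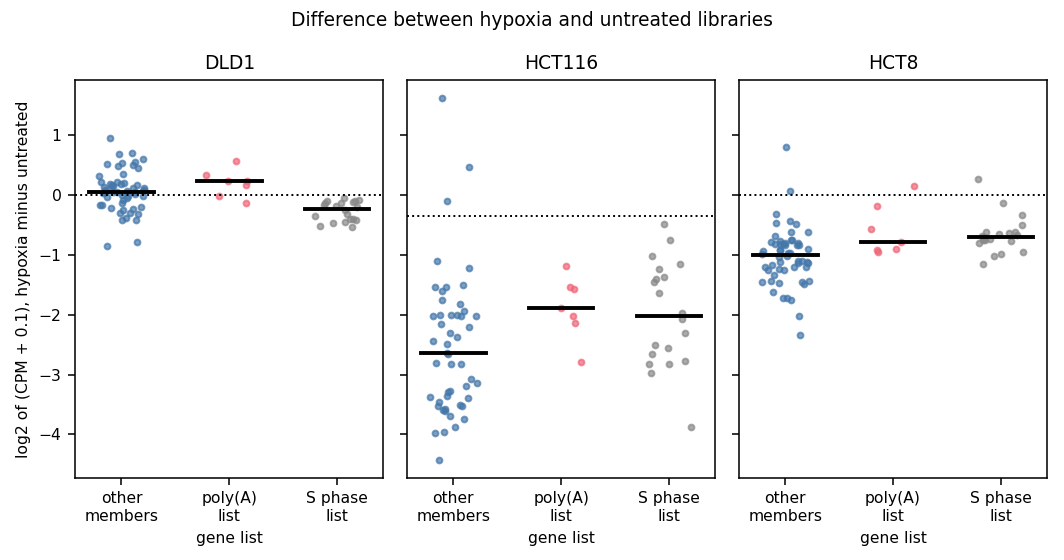
Difference in log2(CPM + 0.1) between the hypoxia and the untreated library (y axis) in DLD1, HCT116 and HCT8, for members outside the poly(A) list, the 7 members of the poly(A) list and the 20 genes of the S phase list, with thick lines at the list medians and dotted lines at the median of all genes tested. The HCT116 panel lies lowest, with medians of -2.64, -1.88 and -2.02, and the poly(A) list has the smaller reduction among the members. Most genes of that list are H2B genes, a family with a median of -2.01 in HCT116.

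Some histone genes also make mRNAs with a poly(A) tail. The 7 on a list of such genes were HIST1H1C, HIST1H2AC, HIST1H2BC, HIST1H2BD, HIST1H2BK, HIST2H2BE and HIST4H4. Under hypoxia the list had a median difference of 0.23 in the DLD1 pair, -1.88 in the HCT116 pair and -0.78 in the HCT8 pair. Members outside the list had 0.05, -2.64 and -0.998. Most genes of the list are H2B genes, and the H2B family as a whole had medians near those of the list, 0.22, -2.01 and -0.82. The part of family and of the tail in these medians was not tested. HIST1H2BD had 136 CPM in DLD1, 186 in HCT116 and 129 in HCT8 untreated, and 161, 81.9 and 68.9 under hypoxia. HIST2H2BE had 123, 189 and 132 CPM untreated and 154, 65.4 and 147 under hypoxia, so that it was lower in HCT116 only. HIST1H2BK, with 303 and 43.8 CPM in HCT116, differed there as much as members outside the list. No member of the list passed edgeR's test with or without the block, and 2 of 7 had an unadjusted p under 0.05 with it (3884 of all 21045 genes). As values beside these, 3 abundant RNAs without a tail, picked after their values were seen, had log2 differences in the HCT116 pair of 0.06 for RMRP, 0.51 for RN7SK and -0.32 for RPPH1.

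In HCT116 and HCT8, genes that form and handle histone mRNA differed less than the histone genes did. SLBP had 147 CPM in DLD1, 112 in HCT116 and 182 in HCT8 untreated, and 122, 43.1 and 150 under hypoxia. NPAT had 31.3, 34.7 and 47.8 CPM untreated and 29.5, 18.1 and 49.7 under hypoxia. Both were lower in HCT116 under hypoxia than in any other library, and in HCT8 SLBP was lower by 0.28 on the log2 scale where the histone sum was lower by 1.02. The 15 of 16 listed genes that were tested had median differences of -0.08, -0.94 and -0.46, and CSTF2, a cleavage factor, was the most reduced in HCT116, from 29.2 to 5.81 CPM. ERI1, an exonuclease that trims histone mRNA ends, went the other way in HCT116, with 114 CPM untreated and 158 under hypoxia. With the block, 13 of the 15 were negative in edgeR's fit, none was called and 4 had an unadjusted p under 0.05 (3884 of all 21045 genes).

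Replication genes and histone chaperones were, like the histone genes, reduced most in HCT116. The 20 genes of an S phase list had median log2 differences of -0.23 in DLD1, -2.02 in HCT116 and -0.70 in HCT8, and 18 of them were more than 2-fold lower in HCT116. PCNA, the sliding clamp of replication, had 453 CPM in DLD1, 260.4 in HCT116 and 349.7 in HCT8 untreated and 366, 36.6 and 177 under hypoxia, and CCNE2 was the most reduced of the list in HCT116 (11.7 and 0.704 CPM). In DLD1 all 20 were lower under hypoxia while 41 of 63 histone members were higher. None of the 20 passed edgeR's test with or without the block, though all 20 were negative in both fits. With the block, 17 of the 20 had an unadjusted p under 0.05 (3884 of all 21045 genes). The 9 of 10 listed chaperone genes that were tested, which include CHAF1A, CHAF1B and ASF1B, had medians of -0.08, -1.77 and -0.39. In bulk RNA, fewer cells in S phase and less histone mRNA per cell cannot be told apart, and the part of either in the histone values was not tested.

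Replication-independent histone genes make variants that can be deposited outside S phase, mostly from ordinary mRNAs with a tail. Their 12 members had median differences of -0.13 in DLD1, -0.91 in HCT116 and -0.21 in HCT8 (11 genes there). H3F3B, which encodes H3.3, had 281 CPM in DLD1, 613 in HCT116 and 236 in HCT8 untreated and 235, 278.5 and 202.5 under hypoxia. H2AFX, the one with a stem-loop in the window, fell by 2.01 on the log2 scale in HCT116, more than any other gene of the list there. H1F0, the linker variant of resting cells, was the only one more than 2-fold higher in a pair, with 91.7 CPM in HCT8 untreated and 306 under hypoxia. Without treatment it had 552 CPM in HCT116 and 651 in NCM460, 380.4 in HIEC6 and 82.3 in DLD1, so its level was lowest in DLD1 and HCT8, the lines in which HIST1H1B and HIST1H1D were expressed. None of the 12 passed edgeR's test for hypoxia, with or without the block. With the block, 2 of the 12 had an unadjusted p under 0.05 (3884 of all 21045 genes).

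Between the untreated CRC lines and the normal lines, edgeR's test called 0 of 64 members and none of the 19964 genes tested (0%), with 8 members and 542 genes at an unadjusted p under 0.05. The median log2 fold change of the members was 0.18, against -0.0048 for all genes. It was -0.29 without the NCM460 library and 1.19 without HIEC6, so the direction turned on which normal line was used. Every CRC line lay above both normal lines for 18 of 64 members (28.1%), against 13.2% of all genes, and none of those tested lay below. Without NCM460 this became 21 of 64 above HIEC6 (42.1% of all genes) and 21 below it (22.1% of all genes), and without HIEC6 54 of 64 above NCM460 (28.2% of all genes) and 0 below. Some of the 18 stood apart only near the floor. HIST1H4L had 1 count in HCT116, 1 in HIEC6 and 0 in NCM460. HIST1H2BE had 6 counts in HCT116, 4 in HIEC6 and 2 in NCM460. HIST2H2BB, listed as a pseudogene, was under 1 CPM in every library. DESeq2 called 6 members, all higher (0.366% of all genes): HIST1H1B, HIST1H1D, HIST1H2AL, HIST1H2BE, HIST1H3I and HIST1H4L. These are the 6 that were under 1 CPM in NCM460, HIEC6 and HCT116 alike but over 10 CPM in all 4 libraries of DLD1 and HCT8. The difference came from DLD1 and HCT8. With 1 normal line left, an alternative added after seeing the data in which the lone library is assumed to vary like the CRC lines, DESeq2 called 20 members without NCM460 (11 higher, against 13.2% of all genes, and 9 lower), 5 of the 6 among them, and 3 members without HIEC6 (all higher, against 0.0823% of all genes), of which HIST1H1B and HIST1H2BE belong to the 6. Without NCM460, genes at large were called in both directions as well. The calls with 1 normal line left have no replicate check, and no excess of members over all genes is read from them. HIST1H1B had 0.244 CPM in NCM460, 0.282 in HIEC6 and 0.593 in HCT116, with a log2 fold change of 10.39 (SE 3.21, adjusted p = 0.999, edgeR).

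HIST1H3J separated the groups without such an absence in HCT116. It had 26.7 CPM in NCM460 and 3.33 in HIEC6 against 178 in DLD1, 85.1 in HCT116 and 167 in HCT8, a log2 fold change of 3.12 (SE 0.96, adjusted p = 0.999, edgeR) that was 5.15 without NCM460 and 2.31 without HIEC6. HIST1H2BM (log2 fold change 3.30, SE 1.51, adjusted p = 0.999, edgeR) had 5.81 CPM in NCM460 and 17.0 in DLD1, the nearest values of the opposite groups, and its fold change was 7.36 without NCM460 and 2.34 without HIEC6. HIST2H3D, picked after its values were seen, had 92.9 and 87.0 CPM in the normal lines and 140.1, 144 and 136.5 in the CRC lines. Against HCT116, the library most like it, the NCM460 library was lower for 54 of 58 members, with a median log2 difference of -0.97 where that of 19580 genes was -0.02.

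The genes at the edge of detection and those with copies need care. Of 4 members known from the male germ line, HIST1H2AA had 0 counts in all 8 libraries, HIST1H2BA reached 8, HIST1H1T 19 and HIST3H3 18 counts. A coding sequence without a base difference is shared by HIST1H4J and HIST1H4K, by HIST2H2AA3 and HIST2H2AA4, by HIST2H3A and HIST2H3C and by HIST2H4A and HIST2H4B, and reads could be split between such copies in a way the sources used here do not state. Other members with a copy of equal length differed from the nearest one at 12 or more positions (median 40). The values of these 4 pairs are therefore uncertain.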

How the data were processed

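Total RNA of 8 cell line libraries was sequenced, after removal of ribosomal RNA in the untreated lines. The authors deposited raw read counts for 54261 genes, with 0 columns left aside here. Reads were aligned to GRCh37.p13 according to the methods, while the submitters' processing notes name HISAT2 2.0.4 and GRCh38. The counter, strand and treatment of reads with several matches are not given in the sources used here, and positions are on GRCh37.

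CPM were computed from column totals. Tests used edgeR 4.0.16 (quasi-likelihood, TMM, Benjamini-Hochberg, threshold 0.05) in R 4.3.3, adjusted over all genes kept by a minimum of 10 counts in 2 or more fitted libraries, and the scripts were tested on simulated data. DESeq2 1.42.0, limma 3.58.1, other scalings and filters, left-out libraries, all 8 libraries in 1 fit and the line as a block were alternatives. In the hypoxia comparison the replicate number is the cell line, and deviations of same-line libraries correlated at 0.836, 0.857 and 0.820, so the numbers pair the samples. Members and lists were chosen with earlier results of these data known. Named genes are the 3 members with the highest mean CPM per family, up to 10 called per test and direction, otherwise up to 5 whose groups do not overlap with mean log2 CPM above 1, and the poly(A) and germ line lists. From other lists, SLBP, NPAT and genes with large differences are named, while H3F3B, PCNA, H1F0, HIST1H3E, HIST2H3D, the back-to-back partners shown and members called by alternatives were added after their values were seen. Symbols were matched to RefSeq for 75 members, 6 of them by exclusion, and 65 promoters were placed on GRCh37 (GENCODE 44 annotation). Amino acid sequences were not used here.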

Additional observations from a re-analysis of the deposited data

How the results depend on the processing

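For hypoxia without the block, 0 members were called by every tool, scaling, filter and left-out library run, while DESeq2 called 51 genes in all. The line pairs the libraries, and with this replicate block edgeR called 200 genes and 0 members. Settings added after seeing the data called 292 genes and 10 members without DLD1, 738 genes and 1 member without HCT116, and 6 genes and 0 members without HCT8, each with the block, and 1666 genes and 9 members by DESeq2 with the block. Between CRC and normal lines DESeq2 called 131 genes and 6 members, and the members' median was 0.42 by limma-trend and ran from -0.29 without NCM460 to 1.19 without HIEC6. DESeq2, added after seeing the data, called 4206 genes and 20 members without NCM460 (median -0.34) and 20 genes and 3 members without HIEC6 (median 1.19). There the shared replicate number joins different lines and pairs nothing, and the block gave 0 calls and a median of 0.36. Library totals alone moved the median of all genes from -0.0048 to 0.17 in this comparison and from 0.06 to -0.06 for hypoxia. Between the CRC lines, 50 members were called with no filter and 7 with at least 10 counts in every library. Leaving out 1 library gave 15 (without HCT8 under hypoxia) to 55 members (without untreated HCT116) and 4547 to 10147 genes. The log2 ratio of summed CPM was, with TMM sizes, without the 10 largest genes and without the largest member, 0.098, 0.075 and 0.058 in DLD1, -1.98, -2.28 and -2.44 in HCT116 and -1.01, -1.01 and -1.05 in HCT8. The causes of these shifts were not tested. For genes named in the hypoxia comparison, 99 alternative values kept direction and side of the threshold and 5 newly passed it, and for those named between CRC and normal lines 58 and 10 did. The F test between lines has no direction, and its 110 values stayed past the threshold. With 2 or 3 lines a group and 1 library for each line and treatment, no test has replicate cultures. Differences between lines limit the tests between groups.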
